A study of Mus musculus with 48 samples.

Results

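Expression in control siRNA cells on day 4 was compared with that on day 3, over all 24613 probes of the array and 3 replicates a day. The cells were 3T3-L1, a mouse fibroblast-like line (ATCC CL-173) that turns into fat cells under hormones. They were transfected with a pool of non-targeting siRNAs at 50 nM and, once confluent, exposed for 48 hours to dexamethasone at 0.25 µM together with the phosphodiesterase inhibitor IBMX at 0.5 mM, and for another 48 hours to insulin at 5 µg/ml with rosiglitazone at 1 µM. Medium was renewed every 2 days, and days are counted from the start of rosiglitazone, so that both day 3 and day 4 lie after the insulin and rosiglitazone window. When medium was changed relative to the harvests of these days is not given in the sources used here, and its part in the differences was not tested. All probes of the 6 control arrays of these days were members, out of 48 arrays over 8 days and 2 siRNAs. The rule used siRNA and day only and no value, but it was chosen with earlier results of these data known. Cells given an siRNA pool against PPARγ (PPARγ KD) and otherwise treated alike, again 3 replicates a day, were used for 1 comparison near the end. Each array reads bulk RNA, so that fewer cells of a type and less RNA per cell cannot be told apart.

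A preadipocyte becomes a fat cell in stages. Dexamethasone, a glucocorticoid, and IBMX, which raises cyclic AMP, start the programme through C/EBP factors. PPARγ, the nuclear receptor that rosiglitazone activates, then turns on the genes of lipid storage. Insulin feeds the lipogenic genes through SREBP factors, which also switch on the enzymes of cholesterol synthesis when sterol in the endoplasmic reticulum runs low, and INSIG proteins hold SREBP back when sterol is plentiful.

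Values are log2 signals after background correction and scaling, differences are day 4 minus day 3 on that scale, and adjusted p-values are limma's with Benjamini-Hochberg correction over all 24613 probes. A probe was called at an adjusted p of at most 0.05 and counted as above background at a detection p under 0.01. Median raw intensity lay between 119.4 and 135.7 on the 6 arrays, and between 33.63% and 39.44% of the probes were above background. Replicate 3 stood apart on both days. Of 9450 probes above background on at least 3 of the 6 arrays, 988 were more than 2-fold lower in replicate 3 than in the mean of the others on day 3 and again on day 4, against 0 for replicate 1 and 1 for replicate 2. All comparisons were made within replicate numbers. Of 16 adipocyte marker probes 11 were above background on all 6 arrays, among them Adipoq, Plin1, Lipe and Cidec, while Lep was above background on none and the Fabp4 probe on 4. Preadipocyte and fibroblast markers were above background on all 6 arrays for 10 of 11 probes. No endothelial, epithelial or brown adipocyte marker probe was above background on any of the 6 arrays, and of 12 macrophage probes only 1 of Lyz2 was.

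Between day 3 and day 4, 1124 probes (4.57% of those tested) were called. Of these, 726 were higher on day 4 (2.95%) under 663 gene names and 398 were lower (1.62%) under 363. Rises were larger than falls, with a median of 0.52 against −0.41, and 52 rises but 15 falls passed 2-fold. All but 5 of the called probes moved the same way in the 3 replicate pairs, and for 828 the arrays of the days did not overlap. The number of calls rests on the replicate pairing and on which replicates are used. Dropping the block left 355 calls. With replicate 1 left out 289 probes were called, with replicate 2 left out 341, and with replicate 3 left out 1092. Quantile normalization gave 830 higher and 684 lower.

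**Figure D1:**
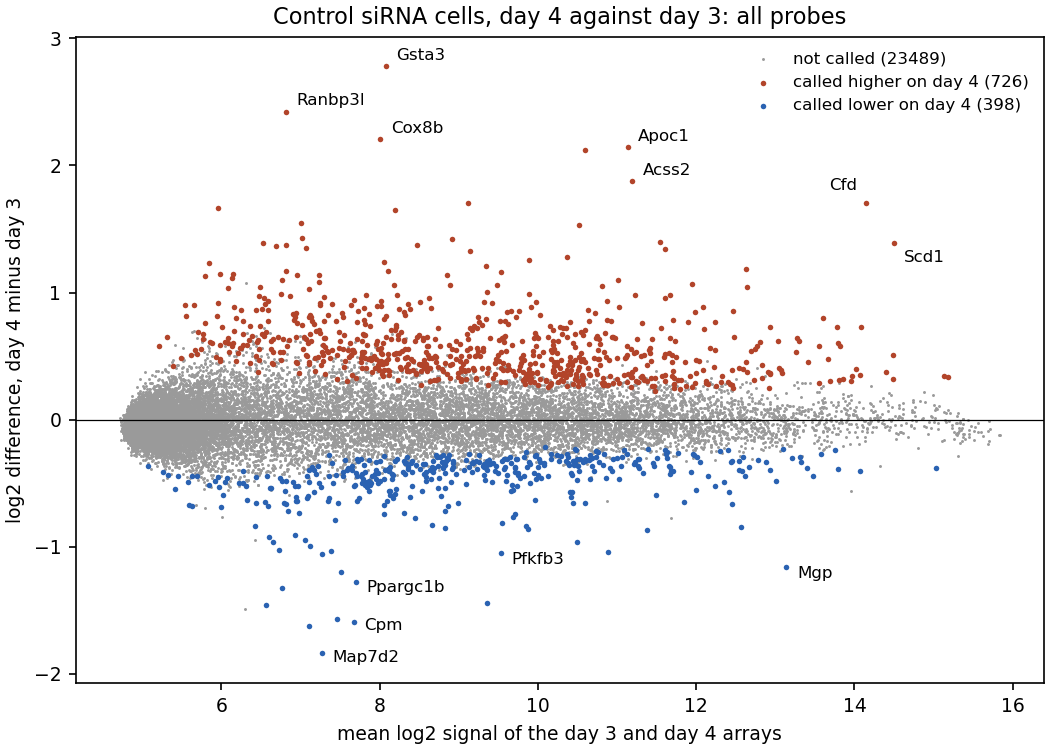
Each point is a probe in control siRNA cells, with the mean log2 signal of the 6 arrays on the horizontal axis and the fitted log2 difference, day 4 minus day 3, on the vertical axis. Red points are the 726 probes called higher on day 4, blue points the 398 called lower, and the largest rise is Gsta3 at 2.78.

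Cholesterol synthesis had the highest share of called probes among the gene lists. Of 31 probes of 23 genes, 21 probes of 17 genes rose (67.7%, beside 2.95% of all probes) and none fell, and the median difference over all 31 was 0.73, against −0.03 over all probes. Without replicate 1 the rises were 19 and without replicate 2 they were 18. The called genes included Acat2 at its start, Pmvk and Mvd of the mevalonate steps, Fdps, Sqle and Lss, which build and close the sterol skeleton, and Cyp51, Msmo1, Nsdhl, Hsd17b7, Tm7sf2, Ebp and Dhcr7, which trim it. Srebf2, the transcription factor of the pathway, Insig1, which restrains it, and Stard4, a sterol carrier, rose as well.

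Mvd, mevalonate diphosphate decarboxylase, read 9.38, 9.25 and 9.16 in replicates 1, 2 and 3 on day 3 and 10.67, 10.55 and 10.34 on day 4. Every day 4 array lay above every day 3 array, and the difference was 1.25 (SE 0.11, adjusted p = 2.13e-10), a 2.38-fold rise. Insig1, by its brightest probe, read 8.45, 8.36 and 8.62 on day 3 and 9.82, 9.87 and 9.72 on day 4. The days were again apart, with a difference of 1.32 (SE 0.13, adjusted p = 3.90e-09), and of its other probes 1 rose by 1.37 and 1 was above background on no array. Lss, lanosterol synthase, read 10.64, 10.62 and 10.12 on day 3 and 11.75, 11.59 and 11.34 on day 4 (difference 1.097, SE 0.10, adjusted p = 5.96e-10). Pmvk, phosphomevalonate kinase, rose by 1.16 and Hsd17b7, a sterol ketoreductase, by 1.07. At the low end stood Srebf2 at 0.43. Idi1 was not called (0.41, adjusted p = 0.222). Sc5d and Ggps1, not called either, were above background on none of the 6 arrays.

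**Figure D2:**
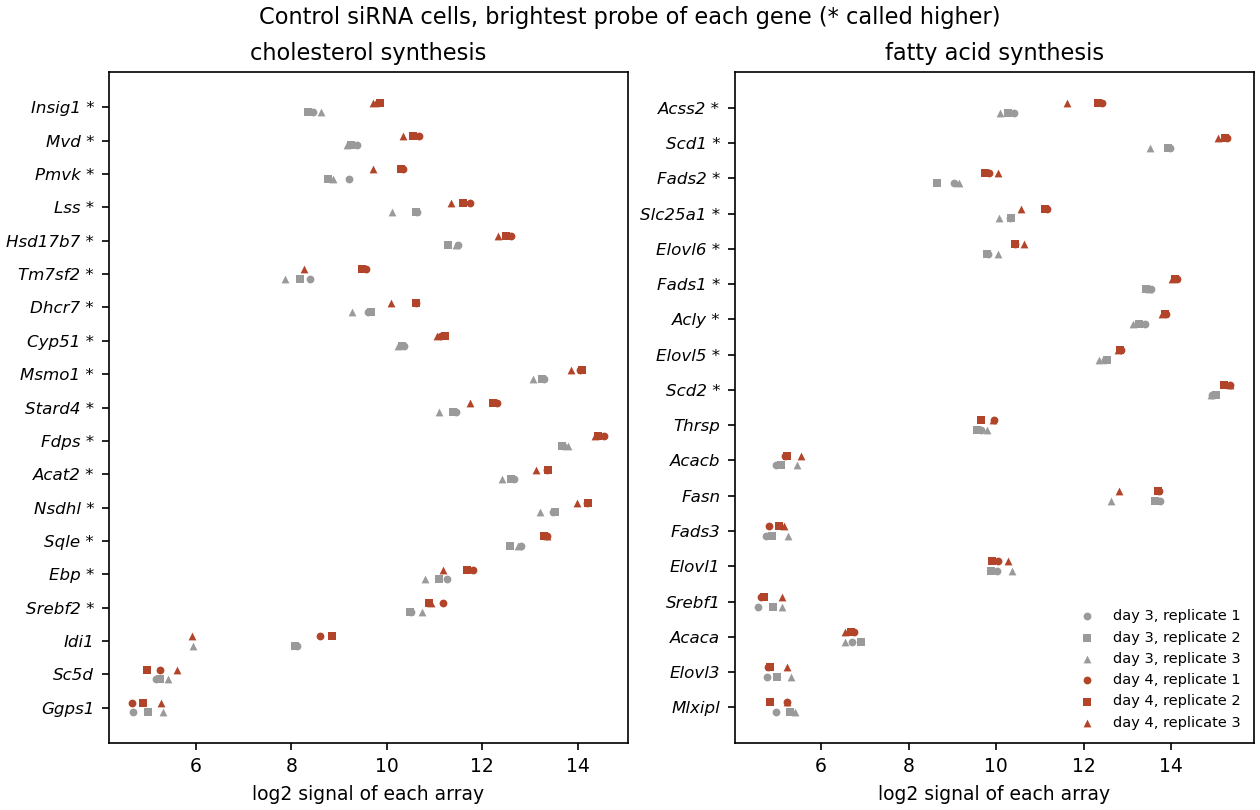
Log2 signal of every array for the brightest probe of 19 genes of the cholesterol synthesis list (left) and the 18 of the fatty acid synthesis list (right). Grey symbols are day 3, red symbols day 4, and shapes the 3 replicates. Genes with an asterisk were called higher on day 4, which holds for 16 of the genes shown on the left and 9 on the right.

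Most of these genes had been higher before. For 19 of the 21 called cholesterol synthesis probes the mean on day 2 had been higher than on day 3. Mvd averaged 10.23 on day 2, 9.27 on day 3, 10.52 on day 4 and 10.54 on day 6. Lss averaged 11.31, 10.46, 11.56 and 11.56 on those days. Day 3 thus lay below both of its neighbours for these 19 probes. These are mean levels over 3 arrays a day, given without a test because the day 3 arrays enter both steps.

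Promoters of called genes are shown because the genes moved together. RefSeq windows of 250 bases before to 50 after the start (GRCm38.p6) were found for 13 of the 17 called cholesterol genes, 1 window a gene. They were searched on both strands for CCAAT, the box read by NF-Y, for GGGCGG, a box read by Sp1, and for CACCCCAC, a sterol element. CCAAT was present in 11 of the 13, beside 37.9% of all 27025 genes with a window and 39% of the 5965 of them above background on at least 3 of the 6 arrays. GGGCGG was present in 12 of 13, beside 35.9% of all and 66.9% of those above background. CACCCCAC was present in 1, Acat2, beside 2.77% of all genes. A match is a run of letters and not a measured site. In the windows of Insig1, Lss and Mvd, written 5′ to 3′ on the gene's strand, capitals mark CCAAT and GGGCGG on either strand, so that the reverse letters appear as ATTGG and CCGCCC.
Insig1 (chr5:28071162-28071461, plus strand): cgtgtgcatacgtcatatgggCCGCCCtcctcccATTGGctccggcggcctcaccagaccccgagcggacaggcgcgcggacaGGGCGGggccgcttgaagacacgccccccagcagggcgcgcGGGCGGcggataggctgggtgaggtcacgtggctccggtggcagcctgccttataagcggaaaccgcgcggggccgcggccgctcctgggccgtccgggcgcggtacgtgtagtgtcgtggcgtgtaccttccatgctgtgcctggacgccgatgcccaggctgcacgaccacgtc
Lss (chr10:76531355-76531654, plus strand): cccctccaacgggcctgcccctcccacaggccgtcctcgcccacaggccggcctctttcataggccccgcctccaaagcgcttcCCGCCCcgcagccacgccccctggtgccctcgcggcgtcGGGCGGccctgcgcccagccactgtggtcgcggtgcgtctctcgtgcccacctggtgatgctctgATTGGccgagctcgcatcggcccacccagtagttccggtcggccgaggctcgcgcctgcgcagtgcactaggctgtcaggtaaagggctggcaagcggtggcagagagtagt
Mvd (chr8:122443373-122443672, minus strand): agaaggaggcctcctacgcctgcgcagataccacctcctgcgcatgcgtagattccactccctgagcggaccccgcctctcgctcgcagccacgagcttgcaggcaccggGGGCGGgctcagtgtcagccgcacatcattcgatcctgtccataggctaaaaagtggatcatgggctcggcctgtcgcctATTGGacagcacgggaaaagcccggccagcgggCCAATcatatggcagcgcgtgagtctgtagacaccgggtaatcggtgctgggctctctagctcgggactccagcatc
The Mvd window holds CCAAT once on each strand, and those of Lss and Insig1 hold it once.

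Genes of fatty acid synthesis rose as well, although the synthase itself was not called. Of 21 probes of 18 genes, 9 genes rose by 1 probe each (42.9% of the list, beside 2.95% of all probes). None fell, and the median over all 21 was 0.17. The rises were 5 without replicate 1 and 9 without replicate 2. Acss2, which makes acetyl-CoA from acetate, read 10.40, 10.27 and 10.09 on day 3 and 12.43, 12.34 and 11.62 on day 4. This was a difference of 1.88 (SE 0.12, adjusted p = 1.42e-13) with no overlap of the days. Scd1, the stearoyl-CoA desaturase, was already among the brighter signals at 13.97, 13.93 and 13.51 and reached 15.27, 15.23 and 15.07 (difference 1.39, adjusted p = 2.91e-10). The desaturases Fads2 (0.92), Fads1 (0.60) and Scd2 (0.34), the elongases Elovl6 (0.62) and Elovl5 (0.37), the citrate carrier Slc25a1 (0.71) and the ATP citrate lyase Acly (0.58) were called too. Fasn, the fatty acid synthase itself, read 13.74, 13.64 and 12.62 on day 3 and 13.73, 13.69 and 12.80 on day 4. The days overlapped and the difference of 0.08 (adjusted p = 0.886) was not called. Srebf1, Acacb and Mlxipl were above background on none of the 6 arrays, and Acaca was on 4.

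Enzymes that supply carbon and reducing power rose by smaller amounts. In the pentose phosphate and NADPH list 3 of 11 probes rose (27.3%, beside 2.95% of all probes) and none fell. The rises were Pgd (0.64, adjusted p = 2.93e-06), Tkt (0.35) and H6pd (0.32), but 1 and 2 rose without replicates 1 and 2. In glycolysis 5 of 26 probes rose (19.2%), among them the muscle-type enolase Eno3 (0.64, adjusted p = 4.44e-06), the glucose transporter Slc2a1 (0.55) and Pkm (0.40). That count became 1 without replicate 1 and 2 without replicate 2. Slc2a4, the insulin-responsive transporter GLUT4, read 7.77, 7.77 and 7.48 on day 3 and 8.68, 8.69 and 8.08 on day 4 (0.81, SE 0.23, adjusted p = 0.0291). Against this direction went 1 glycolysis probe, Pfkfb3, which makes the activator of phosphofructokinase. It read 10.26, 10.11 and 9.82 on day 3 and 9.10, 9.09 and 8.85 on day 4, a fall of 1.05 (SE 0.09, adjusted p = 5.06e-11) without overlap.

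The largest rise of all was in a detoxifying enzyme. Gsta3, a glutathione S-transferase, read 7.03, 6.65 and 6.39 on day 3 and 9.68, 9.63 and 9.10 on day 4, a 6.87-fold rise (2.78, SE 0.19, adjusted p = 6.98e-13). It was above background on 2 arrays of day 3 and all 3 of day 4. Relatives followed. Gstm6 rose by 1.40, Gstm1 by 1.19 (adjusted p = 1.50e-12), Gsta1 by 1.14 and Gsta4 by 1.04 (adjusted p = 5.12e-11). Over the whole family 12 of 29 probes of 23 genes rose (41.4%, beside 2.95% of all probes) and none fell. Without replicate 1 the rises of the family were 6 and without replicate 2 they were 8. This family was listed after values of single genes had been seen. Members of the alpha and mu classes are close in sequence, and how far their probes read each other's transcripts was not tested. Among the other antioxidant enzymes, Nqo1, a quinone reductase, went from 10.22, 10.13 and 10.85 to 11.06, 11.02 and 11.94 (0.93, adjusted p = 1.15e-08), and the days did not overlap although replicate 3 was high on both. Including the transferases, 13 of 42 antioxidant probes rose (31%, beside 2.95% of all probes) and none fell. Gclm, Srxn1, Hmox1 and Prdx4 were among the rises, which numbered 8 without replicate 1 and 10 without replicate 2.

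The antioxidant response element read by NRF2 has the core TGACNNNGC. On either strand it was present in the windows of 3 of the 7 called antioxidant genes that have one, Gsta3, Gclm and Srxn1, beside 12.5% of all genes and 15% of those above background. The Gsta3 window is shown because this gene rose most, with the match in capitals.
Gsta3 (chr1:21240335-21240634, plus strand): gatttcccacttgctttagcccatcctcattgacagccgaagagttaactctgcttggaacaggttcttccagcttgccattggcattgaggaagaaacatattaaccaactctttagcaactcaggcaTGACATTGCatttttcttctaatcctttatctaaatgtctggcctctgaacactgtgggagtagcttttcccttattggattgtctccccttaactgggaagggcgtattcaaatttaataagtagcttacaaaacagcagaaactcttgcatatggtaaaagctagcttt

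Apolipoproteins and other secreted proteins changed in both directions. Apoc1, a small apolipoprotein of lipid-rich particles, read 10.12, 10.18 and 9.90 on day 3 and 12.63, 12.43 and 11.56 on day 4, a 4.42-fold rise (2.14, SE 0.16, adjusted p = 1.04e-11). Its other probe rose by 2.12. Apoc4, its neighbour in the apolipoprotein cluster, rose from 8.29, 8.11 and 8.20 to 10.01, 9.97 and 8.87 (1.42, adjusted p = 1.98e-05), least in replicate 3. Of 16 apolipoprotein probes, a list also drawn up after values were seen, 5 rose (31.2%, beside 2.95% of all probes) and none fell. Cfd, complement factor D or adipsin, went from 13.42, 13.29 and 13.18 to 15.15, 14.99 and 14.88. Its 3 pairs moved by 1.73, 1.70 and 1.69, a 3.27-fold rise (adjusted p = 8.28e-08). The adipokine list shares Cfd and Apoc1. Of its 31 probes 6 rose (19.4%, beside 2.95% of all probes) and 4 fell (12.9%, beside 1.62%). Without replicates 1 and 2 in turn there were 3 and 4 rises and again 4 falls. The acute-phase protein Orm1 (0.96) and the growth factor Igf1 (0.68) were among the rises. The falls were Agt, angiotensinogen, at −0.97 (adjusted p = 0.000339), both probes of haptoglobin, Hp, at −0.85 and −1.04, and lipocalin 2, Lcn2, at −0.83 (adjusted p = 0.000123).

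Most classical fat cell marker probes were not called, but the share of rises was above that of all probes. Of 16 adipocyte marker probes 3 rose (18.8%, beside 2.95% of all probes), those of Cfd, Slc2a4 and 1 probe of Pparg, and none fell. There was 1 rise without replicate 1 and 1 without replicate 2. At an unadjusted limma p under 0.05, 6 of the 16 were higher and 2 lower. The summed linear signal of all 16 was 85790 to 107100 on the day 3 arrays and 107100 to 131100 on those of day 4. That of the preadipocyte list was 98380 to 99850 and 103100 to 111800. The part of these shifts in the other differences was not tested. A linear sum is weighted to its brightest probes. The adipocyte sum holds Cfd, whose mean log2 signal went from 13.30 to 15.01, and does not show a shift of the whole list. Adipoq, adiponectin, read 14.76, 14.89 and 14.32 on day 3 and 15.00, 14.87 and 14.56 on day 4 (0.15, adjusted p = 0.931). Lpl and Plin1 differed by −0.02 and −0.15 and were not called. Pparg was read by 3 probes. The brightest read 11.61, 11.38 and 11.46 on day 3 and 11.86, 11.75 and 11.68 on day 4, higher in all 3 pairs but not called (0.28, adjusted p = 0.209). The second differed by 0.30 (adjusted p = 0.579). The third was above background on no array of day 3 and on 2 of day 4, and rose at least 1.30-fold (adjusted p = 0.0302). Of 11 preadipocyte and fibroblast probes 4 rose (36.4%, beside 2.95% of all probes) and 1 fell (9.09%, beside 1.62%). Without replicates 1 and 2 in turn 1 and 2 rose and none fell. Dlk1, the preadipocyte factor, rose from 13.35, 13.33 and 13.61 to 13.82, 13.81 and 14.08 (0.47, adjusted p = 0.000514), Thy1 rose by 0.53, Ly6a by 0.62 and Gata3 by 0.57, while Fbn1 fell by 0.36. For Ly6a, other genes of the LY6 family have similar sequences.

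Of 21 probes for triglyceride assembly 4 fell (19%, beside 1.62% of all probes) and none rose, while the median over all 21 was 0.03. The falls numbered 0 without replicate 1, 2 without replicate 2 and 1 without the replicate block. The 4 probes belonged to Gpat3, an acyltransferase of the first step, whose brightest probe went from 10.38, 10.33 and 10.20 to 9.42, 9.62 and 9.28 (−0.86, adjusted p = 0.000505), to Dgat2, which adds the last acyl chain (−0.52, adjusted p = 0.0104), and to Gpat4 (−0.32). Among droplet proteins, Fitm2, which shapes budding droplets, fell by 0.73 (adjusted p = 9.48e-05) and Plin4 by 0.30, while Plin2 rose by 0.30 and Plin3 by 0.35. The droplet list had no rise and 1 fall without replicate 1, and the same counts without replicate 2. Acsl1, which activates long fatty acids, fell by 0.66 (adjusted p = 0.00667). Its relative Acsl4 rose by all 3 probes, the brightest by 0.72, from 9.58, 9.52 and 7.51 to 10.33, 10.26 and 8.20, with replicate 3 about as far below the others on both days.

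Coactivators moved apart. Ppargc1b (PGC-1β) read 8.47, 8.33 and 8.19 on day 3 and 7.13, 7.35 and 6.69 on day 4, a fall of 1.28 (SE 0.17, adjusted p = 1.46e-06) to the edge of background. Ppargc1a (PGC-1α) rose from 7.85, 8.01 and 8.61 to 8.77, 8.81 and 8.90 (0.67, adjusted p = 0.00783), least in replicate 3, which was already high on day 3. Of the 32 probes for adipogenic transcription factors, 4 rose (12.5%, beside 2.95% of all probes) and 3 fell (9.38%, beside 1.62%). Without replicate 1, and again without replicate 2, none rose and 1 fell. Cebpb rose by 0.30 and Ddit3 by 0.39, and Rxra, the partner of PPARγ, fell by 0.37. By limma none of 34 mitochondrial fatty acid oxidation probes was called, beside 4.57% of all probes, and 4 had an unadjusted p under 0.05. In oxidative phosphorylation 3 of 85 rose (3.53%) and 1 fell (1.18%), near the 2.95% and 1.62% of all probes. There was 1 rise without replicate 1 and 1 without replicate 2. The largest of the rises was that of Cox8b, a cytochrome oxidase subunit of muscle and brown fat. It went from 7.18, 6.80 and 6.73 to 9.37, 9.54 and 8.43, a 4.62-fold rise (2.21, SE 0.25, adjusted p = 8.28e-08). Ucp1, Cidea, Prdm16, Dio2 and Zic1, markers of brown fat, were above background on none of the 6 arrays. Among mitochondrial ribosomal proteins were 6 probes of 101 lower and none higher, beside a background of 1.62% for falls. That count was 1 without replicate 1, 1 without replicate 2, 15 under quantile normalization and 14 with the filter on dim probes.

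Genes that respond to glucocorticoids were among both the falls and the rises. Exposure to dexamethasone had ended before these days, and its part in the differences was not tested. Per1, a clock gene with a strong glucocorticoid response, read 7.75, 7.84 and 7.81 on day 3 and 6.82, 6.59 and 6.83 on day 4 (−1.05, SE 0.16, adjusted p = 1.83e-05). Fkbp5, which dampens the receptor, went from 10.17, 10.15 and 9.92 to 9.40, 9.62 and 9.001 (−0.74, adjusted p = 0.000133). With Lcn2 and Zbtb16, the latter above background on no array, 4 of 24 probes fell (16.7%, beside 1.62% of all probes). Ddit4 (0.64) and Dusp1 (0.60) rose (8.33% of the list, beside 2.95% of all probes). In the clock list Per2 fell with Per1 by 0.36 (adjusted p = 0.0276) and Arntl (BMAL1), which opposes them in phase, rose by 0.49 (adjusted p = 0.00679). The clock list had no rise without replicate 1 or without replicate 2, and 1 and 2 falls.

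By number, though not by share, ribosome assembly factors had more falls than any other list. This list, chosen after values were seen, had 14 of 70 probes lower (20%, beside 1.62% of all probes) and none higher. The median over all 70 was −0.23. By share the lipid droplet list was equal, with 2 of 10 lower, and triglyceride synthesis had 4 of 21 lower (19%). Rrp12 read 10.26, 10.25 and 9.71 on day 3 and 9.46, 9.43 and 9.02 on day 4 (−0.77, SE 0.09, adjusted p = 6.54e-08). Pes1 moved by −0.44 in each of the 3 pairs. All 14 called probes had averaged higher on day 2 than on day 3. The count depends on single replicates, being 3 without replicate 1, 5 without replicate 2, 4 without the replicate block and 23 under quantile normalization. Among ribosomal proteins themselves none of 54 probes was called by limma, beside 4.57% of all probes. Of the 54, 3 had an unadjusted p under 0.05, and the median difference was 0.0015.

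Some contractile and cytoskeletal genes fell, and matrix genes were divided. Of 42 actin cytoskeleton probes 7 fell (16.7%, beside 1.62% of all probes) and none rose. The falls numbered 1 without replicate 1, 2 without replicate 2 and 1 without the replicate block. Actg2, smooth muscle γ-actin, went from 11.88, 11.72 and 11.84 to 10.89, 10.83 and 11.11 (−0.87, SE 0.11, adjusted p = 1.46e-06), and 1 of the 3 Acta2 probes fell by 0.59 (adjusted p = 0.0231). The other Acta2 probes differed by −0.33 and −0.29 and were not called. Actins are near-identical, and Acta1, a skeletal muscle marker, fell by 0.95 although Myod1, Myog, Des, Ckm and Myh3 were above background on none of the 6 arrays. Of 64 matrix glycoprotein and remodelling probes 14 rose (21.9%, beside 2.95% of all probes) and 5 fell (7.81%, beside 1.62%). Without replicate 1, without replicate 2 or without the replicate block there were 5 rises and 1 fall. Mfap4, a microfibril protein, was above background on no array of day 3 and all 3 of day 4, and rose at least 1.62-fold (adjusted p = 4.37e-08). Dpt, dermatopontin, rose from 9.11, 9.03 and 8.10 to 10.30, 10.33 and 9.23 (1.21, adjusted p = 5.34e-08). The YAP targets Ccn1 (CYR61) and Ccn2 (CTGF) fell too. The brighter Ccn1 probe went from 9.91, 9.94 and 7.88 to 9.02, 9.05 and 7.13 (−0.85, adjusted p = 0.00228), with replicate 3 far below the others on both days, and the dimmer one fell by 1.57 (adjusted p = 6.56e-08). Ccn2 fell by 0.91 (adjusted p = 0.0387). Of 77 collagen and laminin probes 6 fell (7.79%, beside 1.62% of all probes), among them Col6a1 (−0.51), Col4a1 (−0.44) and Col6a3 (−0.38). Another 2 rose (2.6%), near the 2.95% of all probes. None of these calls was left without replicate 1 or without replicate 2, and 1 fall without the replicate block. Mgp, matrix Gla protein, went from 13.69, 13.68 and 13.79 to 12.54, 12.43 and 12.71, a fall of 1.16 (SE 0.08, adjusted p = 1.50e-12).

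Stress and immune genes split within their lists. In the endoplasmic reticulum list 5 of 36 probes rose (13.9%, beside 2.95% of all probes). They were those of Trib3 (0.98, adjusted p = 2.87e-05), Chac1 (0.64) and Ddit3 (0.39), which act in the ATF4 branch. Another 5 fell (13.9%, beside 1.62% of all probes). These were Sdf2l1 (−0.64), Creld2 (−0.57, adjusted p = 2.69e-07), Pdia4, Hsp90b1 and Xbp1, which belong to the folding machinery and the XBP1 and ATF6 branches. Rises numbered 3 and falls 1 without replicate 1, and 2 and 2 without replicate 2. Interferon response genes had 5 rises (9.62%, beside 2.95% of all probes) and 2 falls (3.85%, beside 1.62%) of 52 probes. Without replicates 1 and 2 in turn there were 1 and 2 rises and 1 fall each. Bst2 rose by 0.65 and Ifit2 by 0.58. The chemokine Ccl9 rose from 9.01, 9.11 and 8.75 to 10.01, 10.21 and 9.83 (1.06, adjusted p = 4.38e-08). By limma mitosis had no called probe among 56, beside 4.57% of all probes, with 2 at an unadjusted p under 0.05. DNA replication had 2 falls among 52 (3.85%, beside 1.62%), Fen1 (−0.36) and Pold1 (−0.28), neither called without replicate 1 or without replicate 2.

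Smaller lists added single genes. In lipolysis 4 of 23 probes rose (17.4%, beside 2.95% of all probes) and 1 fell (4.35%, beside 1.62%). Without replicates 1 and 2 in turn 1 and 2 rose and none fell. Pnpla3, an adiponutrin-family lipid enzyme, went from 9.07, 9.05 and 8.46 to 10.16, 10.24 and 9.18 (1.00, adjusted p = 0.0202), and Adrb3, the β3-adrenergic receptor, above background on no array of day 3 and 2 of day 4, rose at least 1.12-fold. Prkaca, the catalytic subunit of protein kinase A, fell by 0.24. Signalling genes that rose were Itga11, a collagen-binding integrin (0.89, adjusted p = 9.80e-06, the only called probe of 21 for integrins), Grem1, a BMP antagonist (0.78, adjusted p = 3.17e-05), and Sfrp2, a secreted Wnt modulator (0.67, adjusted p = 0.00597). Genes that the study had named as PPARγ targets on these samples were read by 19 probes. Of these 1 rose (5.26%, beside 2.95% of all probes) and 3 fell (15.8%, beside 1.62%). Sncg rose by 0.82 (adjusted p = 0.0028) and Pim3, Agt and Atpaf2 fell, and this list is not independent evidence of a direction. It had no rise and 2 falls without replicate 1, and the same counts without replicate 2.

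**Figure D3:**
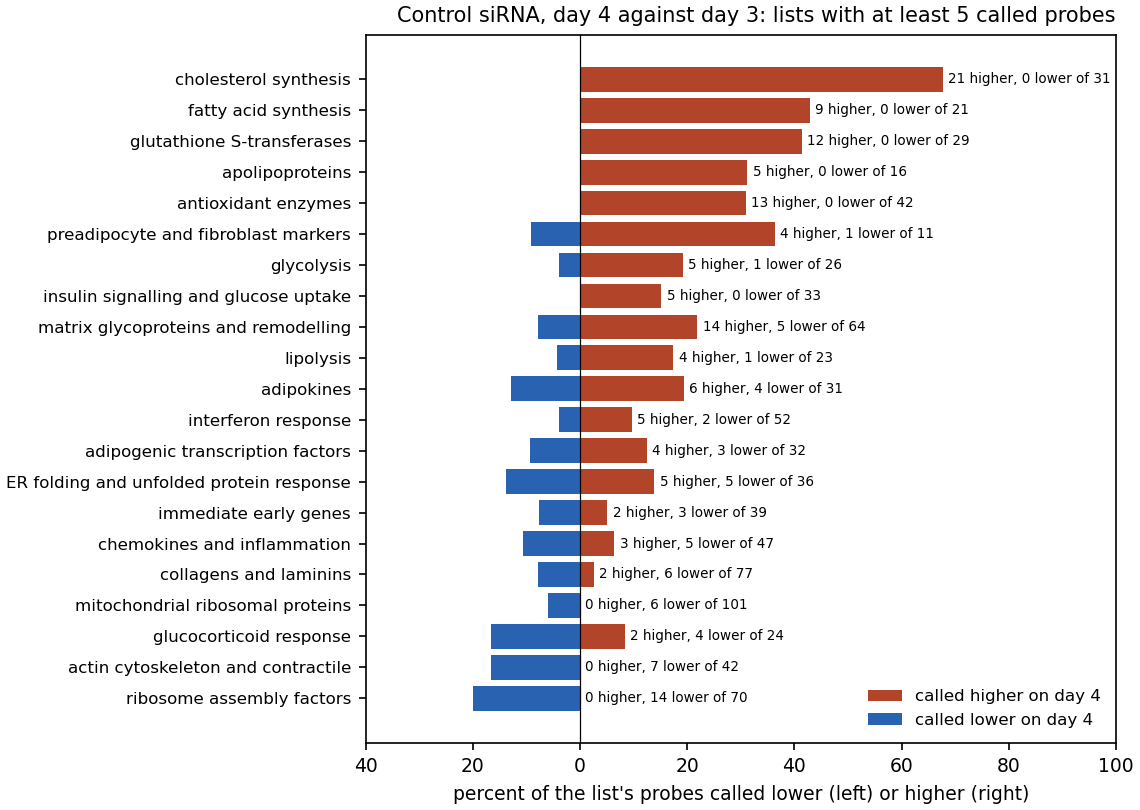
For each gene list with at least 5 called probes, the bar to the right is the percentage of its probes called higher on day 4 and the bar to the left the percentage called lower, with the counts beside it. Over all probes these are 2.95% and 1.62%. Cholesterol synthesis, with 21 of 31 higher, stands at the top, and ribosome assembly factors, with 14 of 70 lower, at the bottom.

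The 12 largest changes in each direction, by the brightest called probe of a gene, included genes outside these groups. Ranbp3l was above background on no array of day 3 and all 3 of day 4, from 5.67, 5.62 and 5.54 to 7.99, 8.44 and 7.66, and rose at least 2.85-fold (adjusted p = 6.27e-11). Camp, the cathelicidin antimicrobial peptide, went from 7.42, 7.36 and 7.34 to 9.18, 9.13 and 8.77 (1.65, adjusted p = 2.07e-06). Ubd, a ubiquitin-like modifier also called FAT10, went from 9.86, 9.81 and 9.57 to 11.54, 11.53 and 10.77 (1.53, adjusted p = 1.58e-07). The carboxylesterase Ces1f (1.70), the acetyltransferase Nat8 (1.55) and the endothelial nitric oxide synthase Nos3 (1.43) complete the rises, and carboxylesterases are another family of similar sequences. Ces1f lost its call without replicate 1.

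The falls were led by Map7d2, a microtubule-associated protein, from 8.37, 8.35 and 7.86 to 6.42, 6.23 and 6.41 (−1.84, SE 0.21, adjusted p = 7.97e-08), with 1 array of day 4 above background. BC055107, an uncharacterised transcript, followed at −1.62, and Cpm, a membrane carboxypeptidase, read 8.67, 8.67 and 8.07 on day 3 and 6.69, 7.03 and 6.93 on day 4 (−1.59, adjusted p = 1.76e-08). Prg4, lubricin, fell by 1.20 and Rgcc, a cell cycle regulator, by 1.03. Sprr2k, a cornified envelope protein, and Fgl1, a fibrinogen-like protein, ended above background on no array of day 4. Sprr2k was at least 1.67-fold lower and Fgl1 at least 1.62-fold.

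**Figure D4:**
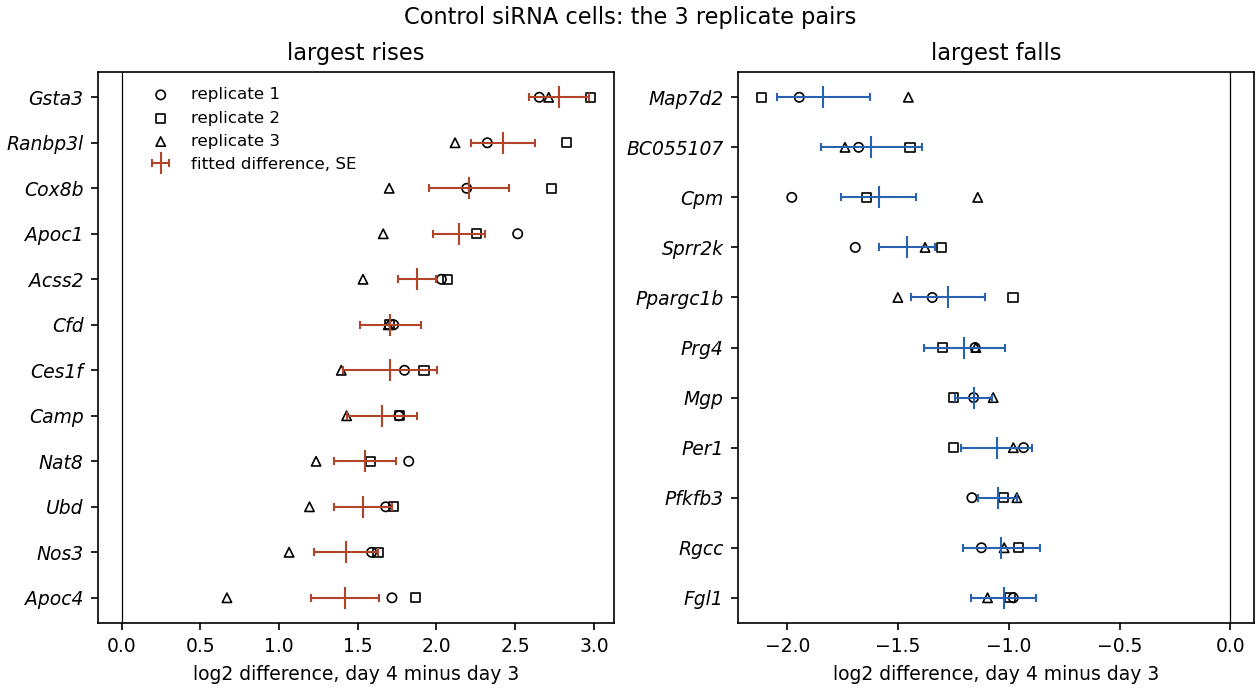
The 12 largest rises (left) and 11 of the 12 largest falls (right) in control siRNA cells as log2 difference, day 4 minus day 3. Open symbols are the 3 replicate pairs and bars the fitted difference with its SE. All pairs lie on the same side of 0, as the rule for choosing these genes required, and replicate 3 is the smallest move for 11 of the 12 rises.

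The same step was set beside that of the PPARγ KD, whose arrays are other dishes. In the PPARγ KD 370 probes were higher on day 4 (1.5%) and 150 lower (0.609%). Of the 726 probes higher in control cells 246 were also higher in the PPARγ KD, which is 33.9% of the former and 66.5% of the latter, and of the 398 lower ones 69 were also lower, 17.3% and 46%. No probe higher in control cells was called lower in the PPARγ KD, and 1 lower in control cells was called higher. A call under 1 siRNA only does not show a difference, which was tested directly. That test called 28 probes (0.114%), of which 26 were called in control cells. It called 4 probes without replicate 1 and 1 without replicate 2. In all 26 the fitted move was smaller in the PPARγ KD, for 18 rises and 8 falls, though for some of them the KD signal was at background. The same control arrays enter both calls, so that this direction was favoured by the selection and is not separate evidence. The other 2 probes, in Cnnm2 and Sort1, were not called in control cells.

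Apoc1 rose by 2.14 in control cells and by 0.12 in the PPARγ KD, a difference between the steps of −2.02 (SE 0.23, adjusted p = 2.33e-06), with the KD arrays all above background. Cox8b (−1.95, adjusted p = 0.00621), Camp (−1.91, adjusted p = 0.00122), Ranbp3l (−1.54, adjusted p = 0.00629) and Ubd (−1.47, adjusted p = 0.00311) differed in the same direction. Of these, Cox8b, Camp and Ranbp3l were above background on no PPARγ KD array of either day, so that their moves there are read from signal at background. Pfkfb3 fell in control cells and differed by 0.09 in the PPARγ KD (difference 1.14, SE 0.12, adjusted p = 6.66e-07), on arrays all above background. Pim3, a serine/threonine kinase, went from 12.92, 12.82 and 12.37 to 12.32, 12.31 and 11.79 in control cells (−0.57, adjusted p = 3.52e-06) and differed by 0.24 in the PPARγ KD (difference 0.81, adjusted p = 5.13e-05). Map7d2 (1.80), Ppargc1b (1.30) and Cpm (1.28) differed too, the first pair being above background on no PPARγ KD array. Acss2 rose in both, by less in the PPARγ KD (0.59), with a difference of −1.29 (adjusted p = 3.56e-05). Gsta3 was called higher in both, and the direct test called its difference of −1.30 (adjusted p = 0.0255). In the PPARγ KD, however, it was above background on no array of day 3 and on 2 of day 4, so that the size of its rise there is not known. Of the 10 largest differences, 5 in each direction, that of Pfkfb3 alone was called under every alternative run.

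**Figure D5:**
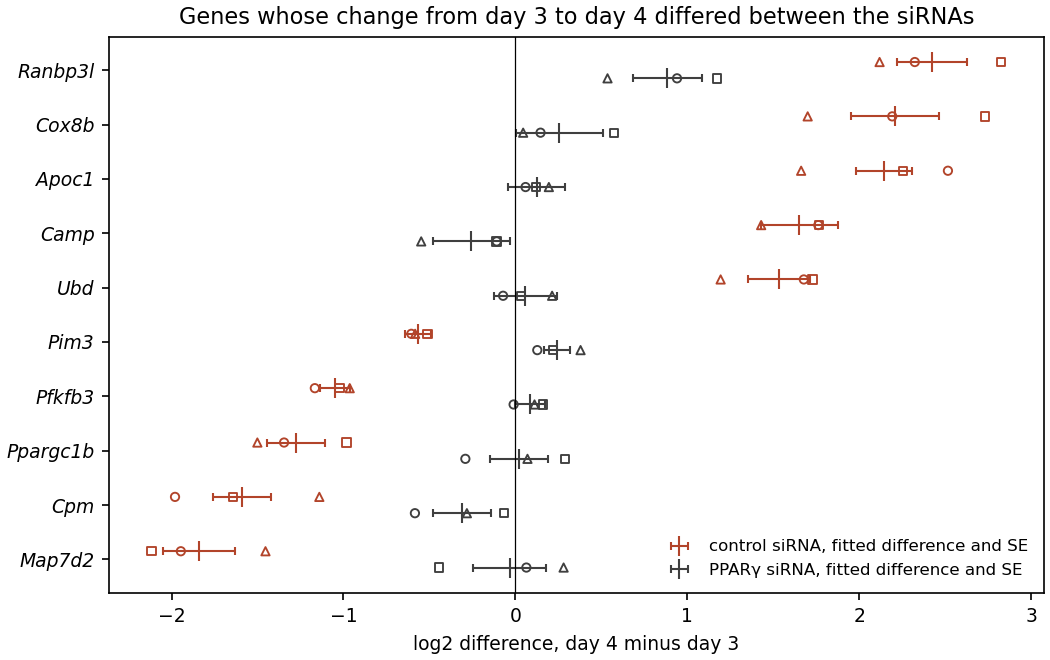
Log2 difference, day 4 minus day 3, of the 10 genes with the largest difference between siRNAs among those called in control cells, 5 in each direction. Red is control siRNA, dark grey PPARγ siRNA, open symbols the replicate pairs and bars the fitted difference with its SE. In control cells every pair lies on 1 side of 0, while the fitted PPARγ KD differences lie nearer to 0. The farthest of these fitted differences is Ranbp3l at 0.88, read from signal at background, with a replicate pair at 1.17.

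Other moves were called under both siRNAs. Cholesterol synthesis had 15 of its 31 probes higher in the PPARγ KD too and none lower, with a median of 0.35 beside 0.73 in control cells. Its steps differed between siRNAs by the direct test for 2 probes, 1 of Insig1 (−1.02, adjusted p = 0.00771) and that of Cyp51 (−0.53, adjusted p = 0.0384). Cfd rose by 2.80 in the PPARγ KD, from a mean of 7.50 to 10.30 beside 13.30 and 15.01 in control cells, and the difference of 1.09 was not called (adjusted p = 0.166). Gstm1 (0.94), Mgp (−0.91), Per1 (−1.04) and Actg2 (−1.06) were called in the PPARγ KD in the direction of the control cells. So was Sprr2k, which there too was above background on no array of day 4. All 7 called cytoskeletal probes of the PPARγ KD were falls, as in control cells. Pparg itself rose by 0.52 in the PPARγ KD by its brightest probe (adjusted p = 0.00678) and the difference between siRNAs was not called (0.23, adjusted p = 0.9998).

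In size the step from day 3 to day 4 was small beside those around the hormone changes. The fit called 5311 probes from day 2 to day 3, 1124 from day 3 to day 4 and 143 from day 4 to day 5. Several of the rises went on. Apoc1 averaged 8.08 on day 2, 10.07 on day 3, 12.21 on day 4 and 14.14 on day 6, and Cox8b 5.32, 6.91, 9.11 and 10.89. Gsta3 instead was highest on day 4 at 9.47 and averaged 8.72 on day 6. Mgp had risen before it fell, from 11.97 on day 2 to 13.72 on day 3, and averaged 13.42 again on day 6.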

How the data were processed

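The 48 arrays (Illumina MouseRef-8) held 8 days of 3T3-L1 differentiation under a control or PPARγ siRNA pool, with 3 independent replicates each, and 6 of them are the control arrays of days 3 and 4. The authors deposited bead-averaged intensity values without normalization from BeadStudio 3.3.7, and a detection score per probe, a fraction between 0 and 1. The score was read as 1 minus the detection p-value, so that p was 1 minus the score. Here the intensities were background-corrected with normexp (limma 3.58.1 in R 4.3.3, offset of 16), scaled by rank-invariant probes and put on the log2 scale. All 48 arrays entered 1 linear model with 1 mean per combination of siRNA and day, in which replicate numbers formed blocks, and eBayes moderated the variance. Samples of the same replicate number deviated together between day 3 and day 4 (correlations of 0.756, 0.651 and 0.906), and the numbers come from the sample labels. Unmatched arrays of replicates 1 and 2 correlated at 0.724 and 0.596, so that the correlations set replicate 3 apart but do not tie replicate 1 to 1 and 2 to 2.

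The step was day 4 minus day 3 in control cells, and the difference between siRNAs was the same step in the PPARγ KD minus that in control cells, each with Benjamini-Hochberg adjustment at 0.05. Where a probe was above background on no array of one day, a lower bound of the fold was computed from the dimmest signals above background. Of 24613 probes, 22704 were named through RefSeq symbols (18343) or synonyms (4361). The number of arrays limits the precision. The p-values measure the spread left after the replicate block, pooled over every day and siRNA in the fit. They do not measure the full spread between cultures, because the block takes out the part shared within a replicate number. The rule for naming genes took the 12 largest changes in each direction among called probes that were above background on the brighter day and moved alike in all pairs, up to 4 called genes of each list and direction, Pparg, and 5 differences between siRNAs in each direction. Other genes were named after their values were seen. A few genes that entered the counts are not reported here by name, in text or figures. The members and gene lists were chosen with earlier results of these data known, and 3 lists were added after values of single genes had been seen. Alternatives were quantile normalization, no background correction, an offset of 50, a filter on dim probes, no replicate block, each replicate left out, fits on 24 or 6 arrays, Bonferroni adjustment, and a trended robust variance. Figures were drawn with matplotlib 3.10.9.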

Additional observations from a re-analysis of the deposited data

Results flagged for a closer look

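The change from day 3 to day 4 differed between control siRNA and PPARγ siRNA for 28 probes by the test of the difference in limma, and the values below are the PPARγ KD step minus the control step on the log2 scale. Among rises in control cells, the differences were −2.02 for Apoc1, −1.95 for Cox8b, −1.91 for Camp, −1.54 for Ranbp3l and −1.47 for Ubd. Among falls in control cells, they were 1.80 for Map7d2, 1.30 for Ppargc1b, 1.28 for Cpm, 1.14 for Pfkfb3 and 0.81 for Pim3. Cox8b, Camp, Ranbp3l, Map7d2 and Ppargc1b were above background on no PPARγ KD array of either day. Of these 10 differences, that of Pfkfb3 was called under every alternative run.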

How the results depend on the processing

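The alternatives followed singly the 146 day differences and 10 differences between siRNAs named by the rule, and none of these changed direction. Other genes named in the text were not followed singly. Of the 146 day differences, 48 were called under every alternative and 63 without each replicate in turn. Against 1124 called probes, Bonferroni adjustment gave 230 and the 3 fits that left out a replicate gave 289 to 1092, the low values without replicates 1 and 2. Against 28 differences between siRNAs, Bonferroni adjustment gave 11, quantile normalization 65, the filter on dim probes 49, and leaving out a replicate 1 to 56, with 4 without replicate 1, 1 without replicate 2 and 56 without replicate 3. Without the replicate block that pairs the arrays, 355 probes and 10 differences between siRNAs were called. Called cholesterol synthesis probes numbered between 15 and 22 over all alternatives, and ribosome assembly factors between 2 and 23. Signal near background limits the genes that were above it on 1 day only, whose folds are lower bounds.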

Other observations

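Pop4, a subunit of ribonuclease P and MRP, was called lower by a single array. It read 10.07, 10.12 and 10.05 on day 3 and 10.08, 9.90 and 5.95 on day 4 (limma, −1.44, adjusted p = 0.0423), so that replicate 3 alone carried the difference.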
